A study of Daucus carota subsp. sativus with 2 samples.

Results

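Transcripts for the enzymes and carriers of sucrose, trehalose and starch were compared between the root of a red carrot (Delhi, Red) and that of an orange carrot (Hybrid, Orange), both Daucus carota subsp. sativus and both untreated per the labels. Poly(A) RNA was sequenced in 1 library per variety, and the labels give neither the age of the plants, the part of the root, nor the number of roots in a library. Members were the transcripts of the count table whose protein name contains a word for these enzymes or carriers (such as sucrose, invertase, SWEET, trehalose, starch, amylase or glucan phosphorylase), and 46 of 19838 transcripts have such a name. They comprise 7 named for sucrose enzymes, 16 for sugar carriers, 8 for the trehalose branch and 15 for the starch branch. The red library holds 11310179 counts and the orange library 7432754. With 1 library per variety no difference has a replicate check, no p-value was computed, and the intervals given cover counting error only.

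Carrot roots store sugar, and sucrose made in leaves reaches them through the phloem. Sucrose is loaded and retrieved by sucrose/proton symporters, passes membranes along its gradient through SWEET proteins, and is split in the receiving cell by sucrose synthase, which yields UDP-glucose and fructose, or by invertase, which yields glucose and fructose. Starch is built in plastids from ADP-glucose, which ADP-glucose pyrophosphorylase makes and starch synthase adds to the growing chain, and it is taken apart by beta-amylase, alpha-amylase and glucan phosphorylase. Trehalose 6-phosphate, made by trehalose-phosphate synthase and removed by trehalose 6-phosphate phosphatase, is a signal of sucrose status in plants, where trehalose itself is usually scarce.

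Most members were higher in the red library, but each of the 4 groups also held transcripts that were higher in orange. A member was measured if its mean scaled count (the count divided by the size factor of its library) was at least 10, which 36 of the 46 reached. It was called if its scaled counts differed at least 2-fold with a 95% counting interval that excludes equality. Of the 36 measured members, 22 (61.1%) were called higher in red, against 30.6% of all 14868 measured transcripts and 31.1% of the 2813 measured transcripts with an informative protein name. Another 9 (25.0%) were called higher in orange, against 24.4% and 23.7% of the same backgrounds, so the members' share toward orange was near the background. The median log2 fold of orange over red was -1.60 in the members and -0.06 in all measured transcripts. At 4-fold, 13 members were called toward red (background 19.8%) and 4 toward orange (background 12.6%).

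**Figure D1:**
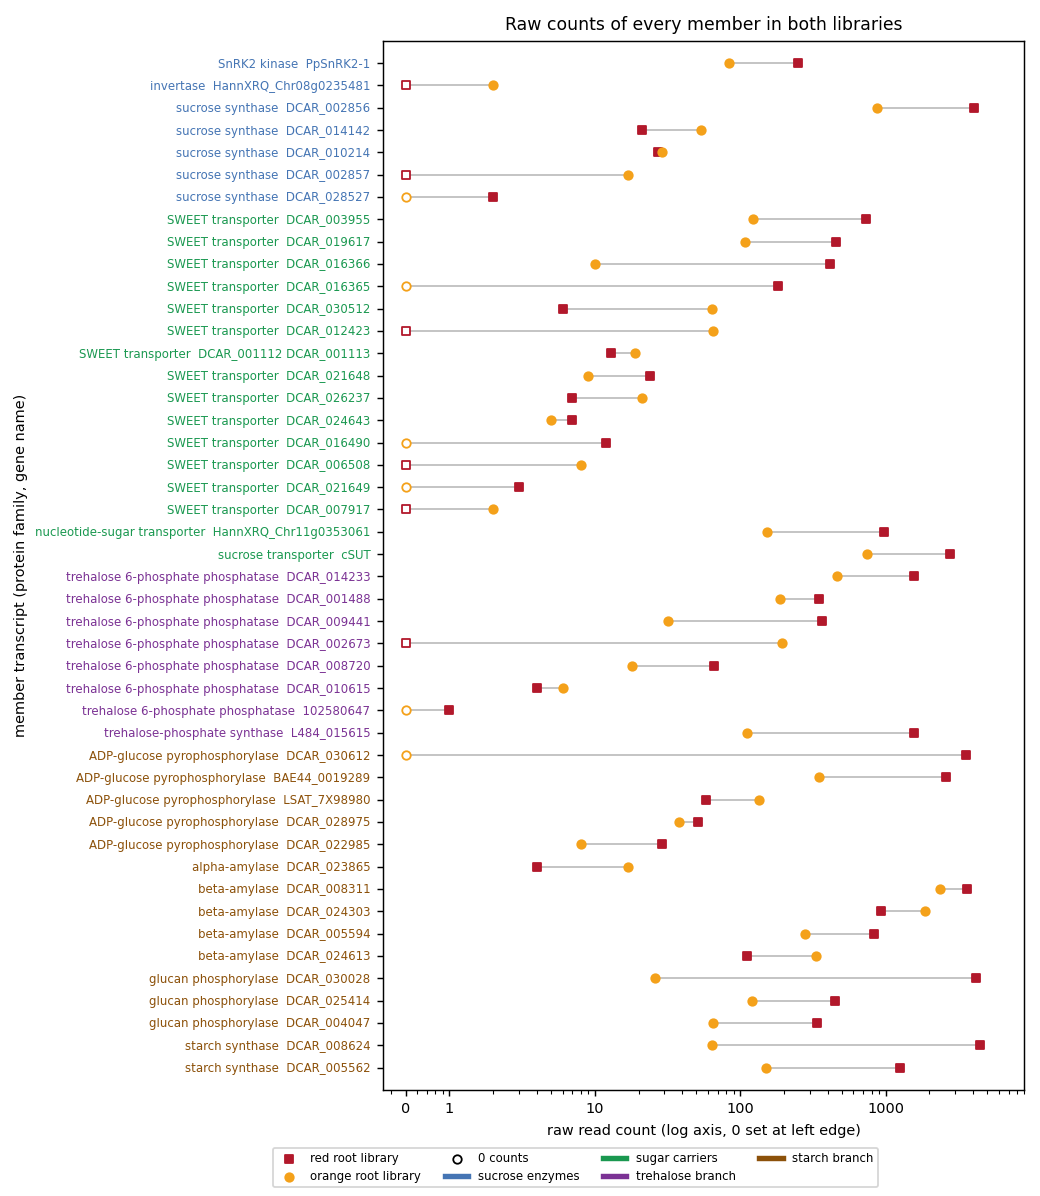
Raw read count (log axis, 0 drawn at the left edge as an open symbol) of all 46 members in the red (squares) and orange (circles) library, with names coloured by group. In the starch group DCAR_030612 is at 3587 (red) and 0 (orange), while among trehalose 6-phosphate phosphatases DCAR_002673 has 0 and 195.

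**Figure D2:**
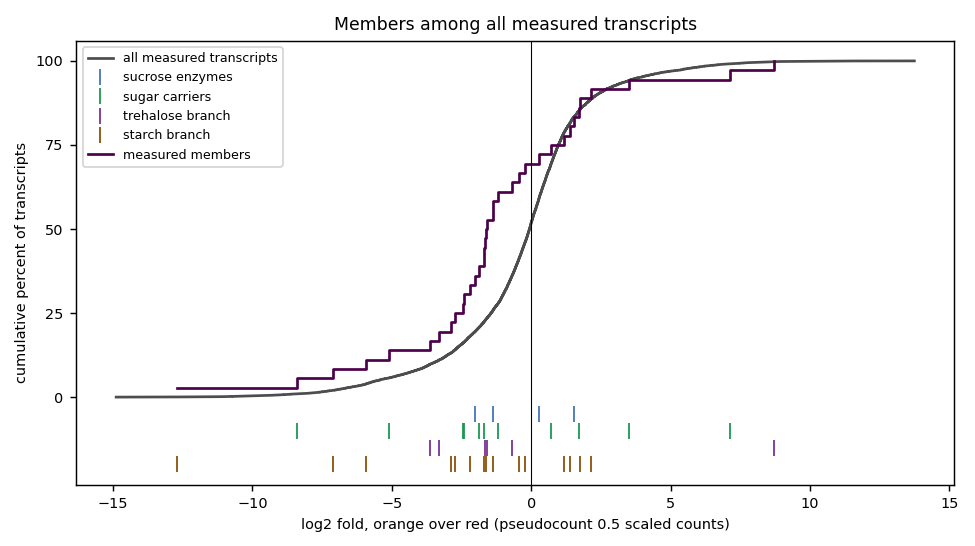
Cumulative percent of transcripts (y axis) by log2 fold of orange over red (x axis) for all 14868 measured transcripts and for the 36 measured members, with ticks for the members of each group. The curve of the members lies above that of all transcripts left of 0, with medians of -1.60 and -0.06, and the curves come together toward the right.

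The libraries differ broadly, which bears on every comparison here. Transcripts of photosynthetic tissue took 4.28% of counts in red and 0.314% in orange, with 33 of 41 measured ones called toward red, 3 toward orange and 4 of all 45 at 0 counts in orange. Phloem-named transcripts, a list that includes the sucrose transporter, took 0.337% and 0.0598% (6 of 7 measured called higher in red, 1 in orange). Transcripts named as cellulose synthase, laccase or xylem proteins took 0.216% and 0.342%, with 1 of 21 called higher in red and 14 in orange. These names are not particular to xylem. Those named for suberin, Casparian strip or peroxidase took 0.249% and 0.428%, with 20 of 46 called higher in red and 14 in orange. Those named for core histones, cyclins or proliferating cell nuclear antigen took 0.0498% and 0.113%, with 10 of 36 called higher in red and 14 in orange. Of 5 transcripts matched as carrot storage root markers 2 were measured, and they lay in opposite directions: the carrot allergen Dau c 1 had 112 counts in red against 637 in orange, and BVC80_289g29, of the pollen allergen and extensin type, had 41 and 0. The part of these differences in the sugar and starch results was not tested, and fewer cells of a type cannot be told apart from less RNA per cell. Scaling to total counts instead of size factors shifted log2 folds toward orange by 0.42 at the median. Under it 19 of 37 measured members were called higher in red (background 24.7%) and 11 in orange (background 33.8%).

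Among transcripts named for sucrose cleavage, almost all counts fell on a single sucrose synthase, and that transcript was higher in red. DCAR_002856 was read 4046 times in red and 869 times in orange, which is 4.09-fold higher in red (interval 3.80 to 4.41). It held 98.8% of the summed sucrose synthase counts in red and 89.7% in orange. The minor sucrose synthases did not share its direction. DCAR_014142 had 21 counts against 54 in orange, a 2.93-fold difference in favour of orange (1.74 to 5.10). DCAR_010214 had 27 and 29 counts, 1.22-fold higher in orange with an interval of 0.699 to 2.15 that includes equality. DCAR_002857 had 0 and 17 counts and DCAR_028527 had 2 and 0, both under the limit on low counts. Without DCAR_002856, the other 4 summed to 50 counts in red and 100 in orange, 2.28-fold higher in orange, whereas the whole family was 3.71-fold higher in red.

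Invertase, the other route of sucrose cleavage, was represented by 1 transcript, a putative neutral invertase (HannXRQ_Chr08g0235481) with 0 counts in red and 2 in orange, which is too few for a ratio. No transcript name contained fructofuranosidase, the systematic name of invertase. As 81.3% of transcripts have an uncharacterized or missing protein name, other invertases may be listed without one. The remaining match in this group, PpSnRK2-1, is a protein kinase of the SnRK2 family, known for signalling of osmotic stress and abscisic acid, and was found through the word sucrose in its name. It had 249 and 84 counts, 2.60-fold higher in red (2.03 to 3.38), and was under 2-fold with total-count scaling.

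The sucrose transporter cSUT, a carrier of the kind that moves sucrose together with protons, was higher in red, with 2767 counts against 750 (3.24-fold, 2.99 to 3.52). Its ratio was close to that of the sucrose synthase family: there were 0.676 transporter counts per sucrose synthase count in red (0.643 to 0.709) against 0.774 in orange (0.703 to 0.852). Such a quotient within a library does not depend on how the libraries are scaled.

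SWEET transporters, which let sugars pass in either direction along their gradient, were the most numerous members and went both ways. Of 14 transcripts 9 were measured, and 5 (55.6%) were called higher in red, 3 (33.3%) in orange and 1 in neither. The shares over all measured transcripts were 30.6% toward red and 24.4% toward orange. Those of highest mean scaled count were higher in red. DCAR_003955 had 735 and 122 counts (5.29-fold, 4.36 to 6.46), and DCAR_019617 had 456 and 108 (3.71-fold, 3.0004 to 4.62). DCAR_016366 had 415 and 10 counts, 36.4-fold higher in red (19.6 to 76.6). These 3 had reads in both libraries.

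A further SWEET, DCAR_016365, was read 182 times in red and 0 times in orange, a difference of at least 53.3-fold against a floor of 3 counts in the orange library. DCAR_021648 was the fifth toward red, with 24 and 9 counts (2.34-fold, 1.05 to 5.73), and lost its call with total-count scaling. Toward orange, DCAR_012423 was at 0 in red with 65 counts in orange, a difference of at least 24.7-fold. DCAR_030512 had 6 and 64 counts, 12.1-fold higher in orange (5.28 to 34.3), and DCAR_026237 had 7 and 21, 3.42-fold (1.40 to 9.51). The 3 SWEETs called toward orange all had at most 65 counts in either library.

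The transcript that carries the names DCAR_001112 and DCAR_001113 had 13 and 19 counts, and its interval of 0.780 to 3.67 includes equality, though it was called toward orange with total-count scaling. The 5 SWEETs under the limit on low counts had 0 to 12 counts in red and 0 to 8 in orange. Summed over all 14, SWEET counts were 1860 in red and 433 in orange, 3.77-fold higher in red, and 3.18-fold without DCAR_003955. The make-up differed: DCAR_016366 and DCAR_016365 held 22.3% and 9.78% of the SWEET counts in red and 2.31% and 0% in orange, while DCAR_030512 and DCAR_012423 held 0.323% and 0% in red and 14.8% and 15.0% in orange. DCAR_019617 held nearly the same share in each, 24.5% and 24.9%.

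The last carrier, HannXRQ_Chr11g0353061, is named as a putative nucleotide-sugar transporter, a type that carries activated sugars across internal membranes rather than free sugar. It had 968 and 154 counts, 5.52-fold higher in red (4.65 to 6.59).

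**Figure D3:**
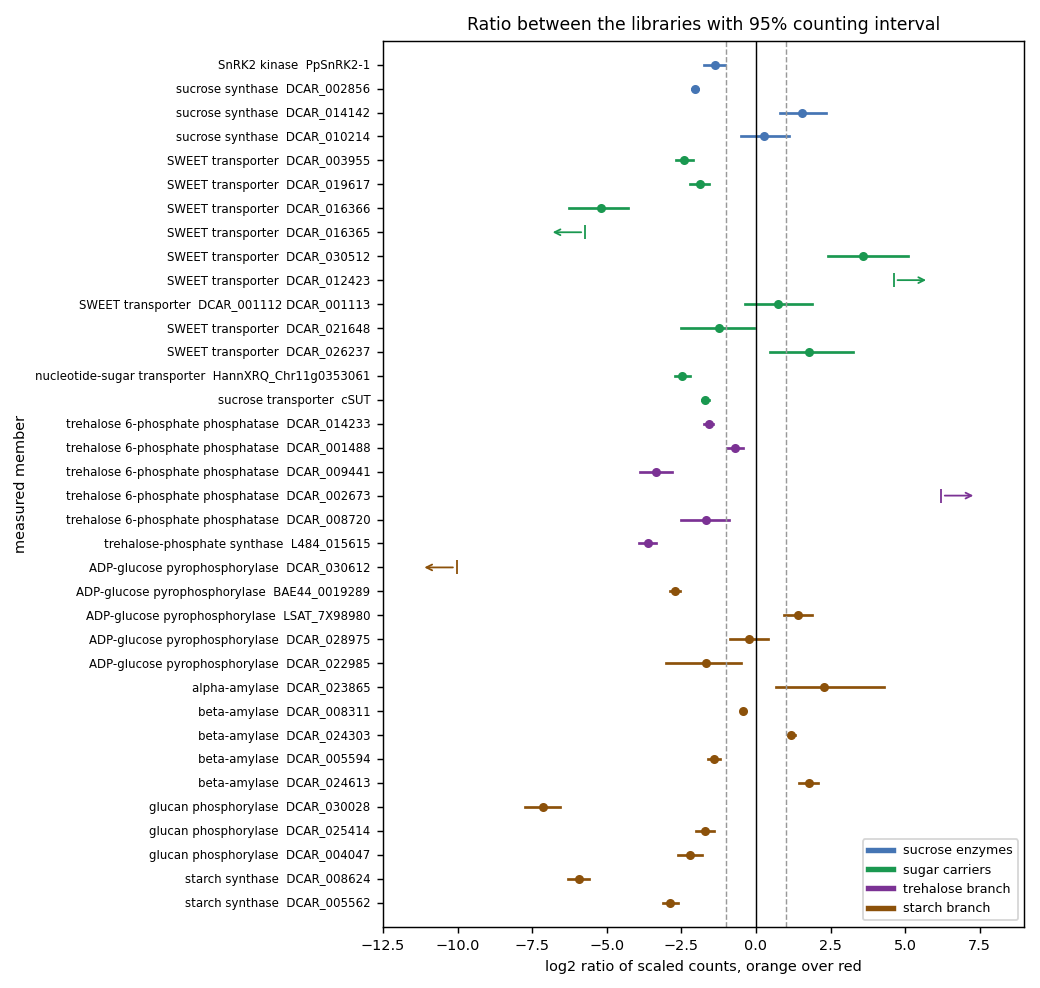
Log2 ratio of scaled counts, orange over red (x axis), for the 36 measured members, with bars for the 95% counting interval, arrows for bounds against a floor of 3 counts, and dashed lines at 2-fold. All 3 glucan phosphorylases and both starch synthases lie left of the 2-fold line, while the 4 beta-amylases lie on either side of 0.

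In the trehalose branch the synthase differed more between the libraries than the summed phosphatases did, though not more than each phosphatase. The only transcript named as a trehalose-phosphate synthase, L484_015615, had 1558 counts in the red library against 111, which is 12.3-fold higher (10.2 to 15.1). Of 7 trehalose 6-phosphate phosphatases, 5 were measured, and 3 (60.0%) were called higher in red and 1 (20.0%) in orange. The background shares were 30.6% and 24.4%. DCAR_014233, which held 66.7% of the phosphatase counts in red and 51.2% in orange, had 1569 and 460 counts (2.996-fold, 2.70 to 3.33). DCAR_009441 had 367 and 32 (10.1-fold, 7.01 to 14.9), and DCAR_008720 had 66 and 18 (3.22-fold, 1.89 to 5.76). All 3 lay on the side of the synthase.

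DCAR_001488, another phosphatase, had 347 counts against 187, a ratio of 1.63 toward red (1.36 to 1.96) that is under the 2-fold limit. DCAR_002673 stood apart in direction, being at 0 in red with 195 counts in orange, a difference of at least 74.0-fold. It made up 21.7% of the phosphatase counts in orange. The remaining 2, DCAR_010615 with 4 and 6 counts and the transcript named 102580647 with 1 and 0, were under the limit on low counts. Summed phosphatase counts were 2354 and 898, 2.30-fold higher in red, and 1.57-fold without DCAR_014233. There were 0.662 synthase counts per phosphatase count in red (0.620 to 0.706) and 0.124 in orange (0.101 to 0.151). This quotient covers named transcripts only, and further synthases may be listed without an informative name.

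Within the starch branch, the summed transcripts for making starch differed 14.3-fold between the libraries, higher in red, while those for beta-amylase summed to the same level. All 15 were measured, 9 (60.0%) were called higher in red and 4 (26.7%) in orange, and the median log2 fold was -1.61. Over all measured transcripts these shares were 30.6% and 24.4%, so the share toward orange was near the background. ADP-glucose pyrophosphorylase, which commits glucose 1-phosphate to starch, had 5 transcripts. DCAR_030612 was read 3587 times in red and 0 times in orange, a difference of at least 1050-fold. BAE44_0019289 had 2613 and 348 counts (6.59-fold, 5.89 to 7.40). These 2 held 56.6% and 41.2% of the family's counts in red.

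The smaller pyrophosphorylase transcripts were mixed. DCAR_022985 had 29 and 8 counts, 3.18-fold higher in red (1.42 to 8.06). LSAT_7X98980 had 58 and 134, 2.63-fold higher in orange (1.92 to 3.64). DCAR_028975 had 51 and 38, 1.18-fold higher in red with an interval of 0.759 to 1.84 that includes equality. In orange the family was made up of BAE44_0019289 (65.9%), LSAT_7X98980 (25.4%) and the rest. The family summed to 6338 and 528 counts, 10.5-fold higher in red, and 4.58-fold higher without DCAR_030612. The deposited names do not tell large from small subunits of this enzyme.

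Both starch synthases, which extend the glucan chain, were higher in red. DCAR_008624 was read 4462 times in red and 64 times in orange, a ratio of 61.2 (47.9 to 79.6). DCAR_005562 had 1258 and 151, 7.32-fold higher (6.18 to 8.72). DCAR_008624 held 78.0% of starch synthase counts in red, and DCAR_005562 held 70.2% in orange. No transcript name contained glucan-branching or isoamylase, the enzymes that add and trim branch points. Most of the table (81.3% of transcripts) has an uncharacterized or missing protein name, so such genes may be listed without one.

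Glucan phosphorylase, which releases glucose 1-phosphate from the chain ends, was higher in red for all 3 transcripts. DCAR_030028 was read 4161 times in red and 26 times in orange, a ratio of 141 (95.8 to 215). DCAR_025414 had 446 and 121 (3.24-fold, 2.64 to 3.99), and DCAR_004047 had 339 and 65 (4.58-fold, 3.50 to 6.07). The family was 20.5-fold higher in red and, without DCAR_030028, 3.71-fold.

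The beta-amylases, which release maltose from starch, summed to the same scaled level in both libraries. Their summed scaled counts were 5143 in red and 5138 in orange, from 5488 and 4815 raw counts. Individual transcripts differed in opposite directions. DCAR_008311, of highest mean scaled count among them, had 3621 and 2353 counts, 1.35-fold higher in red (1.28 to 1.42). DCAR_005594 had 829 and 277, 2.63-fold higher in red (2.29 to 3.02), and was not called with total-count scaling.

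The other pair lay toward orange. DCAR_024303 had 927 and 1854 counts, 2.28-fold higher in orange (2.10 to 2.47), and DCAR_024613 had 111 and 331, 3.40-fold higher in orange (2.73 to 4.25). DCAR_024303 held 16.9% of beta-amylase counts in red and 38.5% in orange. The alpha-amylase DCAR_023865, which cuts inside the chain, was near the limit on low counts with 4 and 17 counts, 4.84-fold higher in orange (1.58 to 19.8). With total-count scaling the share of the red library's counts in beta-amylase was 0.749 times that of the orange library.

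**Figure D4:**
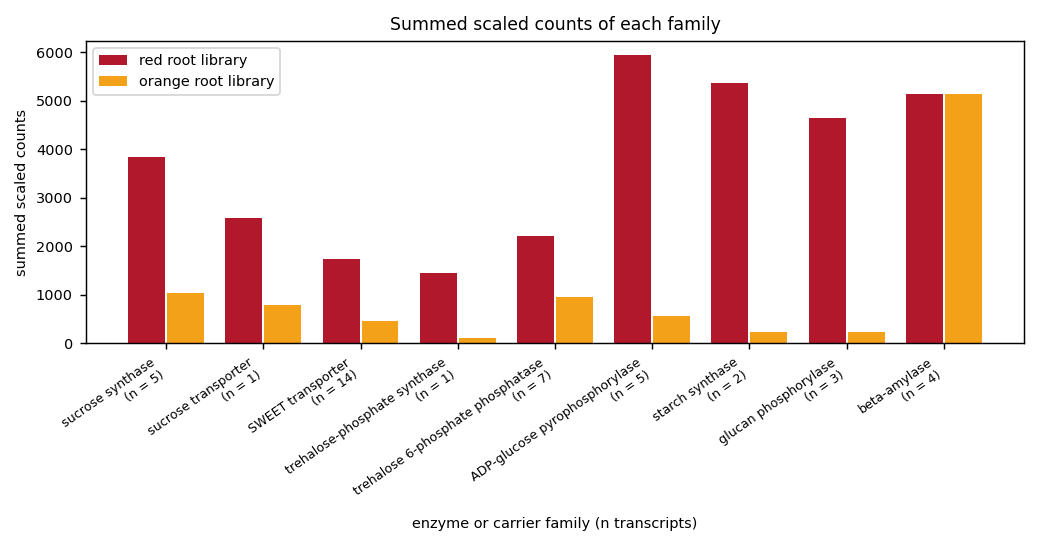
Summed scaled counts (y axis, from 0) of each enzyme or carrier family in the red and orange library, with the number of transcripts under each name and no replicates. Starch synthase sums to 5361 in red and 229 in orange, while beta-amylase sums to 5143 and 5138.

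Quotients within each library, which need no scaling between libraries, also set the starch-making transcripts apart from beta-amylase. ADP-glucose pyrophosphorylase and starch synthase together had 12058 counts in red against 5488 of beta-amylase, 2.20 counts per beta-amylase count (2.13 to 2.27). In orange they had 743 against 4815, or 0.154 (0.143 to 0.167). Leaving out DCAR_030612, which was at 0 in orange, the quotient in red was 1.54 (1.49 to 1.60). Glucan phosphorylase had 0.901 counts per beta-amylase count in red (0.867 to 0.937) against 0.0440 in orange (0.0382 to 0.0505). The starch-making transcripts also stood higher against sucrose synthase, at 2.94 per count in red (2.84 to 3.05) against 0.767 in orange (0.696 to 0.845). The photosynthetic transcripts, at 4.28% and 0.314% of counts, were higher in the same library as the starch-making ones, and their part in this difference was not tested.

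**Figure D5:**
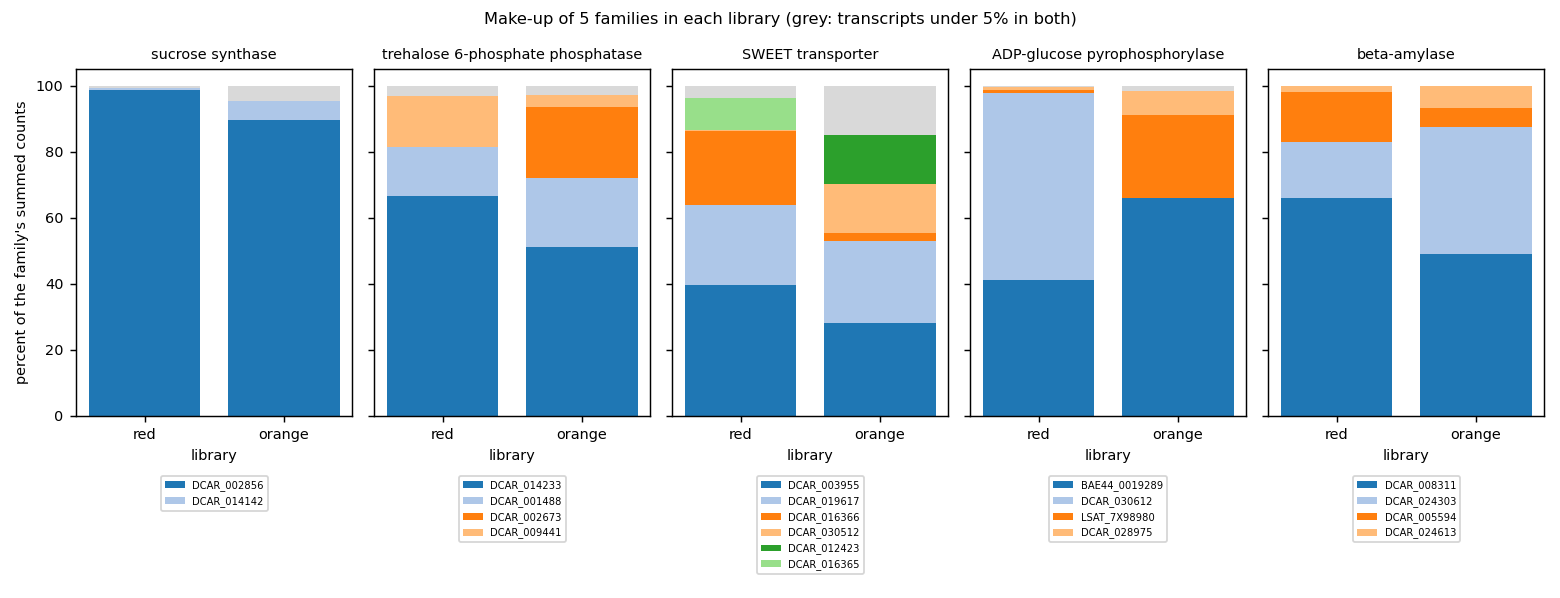
Percent of each family's summed raw counts (y axis) held by each transcript in the red and orange library (x axis), for 5 families. DCAR_030612 holds 56.6% of ADP-glucose pyrophosphorylase counts in red and 0% in orange, and DCAR_024303 holds 16.9% of beta-amylase counts in red and 38.5% in orange.

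Neighbouring steps were described from a list of 9 other measured transcripts of hexose phosphate and nucleotide sugar metabolism. Of these, 4 were called toward red (44.4%, background 30.6%) and 1 toward orange (11.1%, background 24.4%), at a median log2 fold of -0.75. The words of that list also matched 9 phosphofructokinase transcripts, by part of a name, and these were left out after the match was seen. With them, 5 of 17 measured transcripts were called toward red (29.4%, background 30.6%) and 4 toward orange (23.5%, background 24.4%), at a median of -0.30, so the longer list was near the background in both directions. Plastid phosphoglucomutase (BC332_08016), which supplies glucose 1-phosphate to ADP-glucose pyrophosphorylase, had 2119 and 41 counts, 45.4-fold higher in red (33.3 to 63.4). UTP--glucose-1-phosphate uridylyltransferase (DCAR_014145), which interconverts UDP-glucose and glucose 1-phosphate on the sucrose synthase route, had 6403 and 1304 (4.31-fold, 4.06 to 4.58). Glucose-6-phosphate isomerase DCAR_009571 was 3.41-fold higher in red (3.04 to 3.85), and the other isomerase transcript, which has no gene name, 1.21-fold (1.14 to 1.29). UDP-glucose 6-dehydrogenase, which draws UDP-glucose toward wall polysaccharides, was called for DCAR_026011 (2.34-fold higher in red, 1.97 to 2.78) and not for DCAR_025416 or DCAR_011048 (1.23-fold and 1.68-fold).

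The disproportionating enzyme DCAR_010077, which rearranges glucans during starch breakdown, had 428 and 232 counts, 1.62-fold higher in red (1.38 to 1.91). The transcript called higher in orange was a regulatory gamma subunit of SNF1-related kinase (F383_00426), a family that senses energy and sugar status, with 462 and 4696 counts (11.6-fold, 10.5 to 12.8).

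In the authors' deposited tables, which give a p-value per transcript from the same pair of libraries, 7 of the 46 members had p of at most 0.05, against 6.04% of 19837 transcripts. Of these members, the authors' deposited tables place DCAR_030612, DCAR_030028, DCAR_008624, DCAR_016366 and DCAR_016365 higher in red and DCAR_002673 and DCAR_012423 higher in orange. An adjusted p of at most 0.05 was given in the authors' deposited tables for DCAR_030612 alone among the members (0.0390), and for 63 transcripts of the whole table. With 1 library per variety those values cannot rest on a spread between plants.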

How the data were processed

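Poly(A) RNA from 1 red and 1 orange carrot root library was sequenced, and each library's group was taken from its title. FastQC, HISAT, HTSeq, DESeq and cutadapt are listed in the submitters' processing notes, without versions or roles. Genome build, annotation and strandedness of counting were not given in the sources used here. Raw read counts per transcript, with protein and gene names, were deposited by the authors. They also deposited normalised counts, a signal equal to the count times 0.937 (red) or 1.07 (orange). The authors' deposited comparison tables hold a fold (a ratio of orange over red), its log2 and p-values.

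Here, the whole table was scaled with median-of-ratios size factors (counts divided by 1.07 in red and 0.937 in orange), with Python 3.11.15, pandas 2.3.3 and scipy 1.17.1. Log2 folds used a pseudocount of 0.5 scaled counts, and ratios in the text use none. Intervals are 95% exact Clopper-Pearson. A count of 0 was set at a floor of 3 counts in that library for bounds. Reads carry no molecular identifiers, so intervals and floors cover counting error only. The calling procedure was tested on simulated counts that varied by counting error only, so that test does not bear on spread between plants. TMM factors came from edgeR 4.0.16.

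Members were found by protein name, and every member is given with its counts or within a range. Members, groups and lists were chosen with earlier results of these data known, and the background of transcripts with an informative name was added after the data were seen. From the list of neighbouring steps, phosphofructokinases that matched by part of a word were dropped after the match was seen. None (0) of the 46 members' names matched the RefSeq gene table of assembly DH1 v3.0, so no coordinates or sequences are given, and 8 members carry names without a carrot locus tag. Near-identical copies can exchange reads in counting, so single family members are less certain than family sums. Counts are not per length, so shares of a family's counts are not shares of its RNA molecules.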

Additional observations from a re-analysis of the deposited data

How the results depend on the processing

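No paired analysis was possible because each variety has 1 library. No called member changed direction under total-count scaling, TMM scaling or a pseudocount of 1, and TMM scaling, a pseudocount of 1 and summing counts by gene name left every group's counts within 1.5 times. The choice of fold had the widest effect. At 4-fold, 13 members were called higher in red and 4 in orange, against 22 and 9 at 2-fold. By group, 1 sucrose enzyme, 2 trehalose, 4 carrier and 6 starch transcripts were then called toward red. Toward orange there were 0 sucrose enzymes, 1 trehalose, 2 carrier and 1 starch transcript. The shares over all measured transcripts at 4-fold were 19.8% toward red and 12.6% toward orange. With a minimum mean scaled count of 50, 25 members were measured, of which 19 were called toward red and 4 toward orange. Only 2 sucrose enzymes and 6 carriers were still measured, and 0 of either were called toward orange. The sucrose enzymes and carriers called toward orange before had fallen under this limit. The carrier median log2 fold was -2.43. Shares over all transcripts were not computed at this limit. With total-count scaling 1 sucrose enzyme was called toward red and 2 toward orange, and the carrier median was -1.28. The sucrose enzyme median changed sign under it, from -0.55 over 4 measured transcripts to 0.70 over 5. Over all measured transcripts the calls were 4546 toward red and 3631 toward orange with size factors. Without the filter on low counts 2 sucrose enzymes were called toward orange, the sucrose enzyme median was 0.29, and the carrier median was -1.44. Leaving out the SnRK2 kinase and the nucleotide-sugar transporter left 1 sucrose enzyme called toward red. The medians were then 0.29 for sucrose enzymes and -1.44 for carriers. Leaving out members at 0 in a library, an alternative chosen after seeing the data, left 0 trehalose transcripts called toward orange. That outcome was fixed by the choice, as the only trehalose transcript called toward orange, DCAR_002673, is at 0 in red. Setting members at 0 at their bound instead left the median over members at -1.60. Depth limits the 10 members under the filter, of which 7 showed no detectable 2-fold difference when the filter was dropped.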

Other observations

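Some members with consecutive carrot locus tags and transcript numbers had unlike counts, and they were picked out after their values were seen. The sucrose synthases DCAR_002856 and DCAR_002857 had 4046 and 0 counts in red and 869 and 17 in orange. The SWEETs DCAR_016365 and DCAR_016366 were both higher in red, with 182 and 415 counts there and 0 and 10 in orange. DCAR_021648 and DCAR_021649, also SWEETs, had 24 and 3 counts in red and 9 and 0 in orange. Whether neighbouring copies exchanged reads was not tested.

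Absence from a library was uncommon among abundant transcripts. Of 2354 transcripts with at least 1000 counts in red, 22 (0.935%) had 0 in orange, and the ADP-glucose pyrophosphorylase DCAR_030612 was the 1 member among them. Of 1669 with at least 1000 counts in orange, 5 had 0 in red, and no member was among them. At the lower limit of 100 counts, 155 of 9476 transcripts in red (1.64%) had 0 in orange, among them DCAR_030612 and the SWEET DCAR_016365. Of 8575 with at least 100 counts in orange, 63 (0.735%) had 0 in red, among them the trehalose 6-phosphate phosphatase DCAR_002673. At either limit, absence from orange was more frequent than absence from red. The orange library holds fewer counts (7432754 against 11310179), so equal count limits do not select equal abundances. The part of depth in this difference was not tested.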
